A study of Ovis aries with 8 samples.

Results

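Subunits of the respiratory chain and of ATP synthase were followed in the lungs of 8 sheep fetuses, with complexes I to V kept apart. Array probes were taken as members where the gene name in the scanner file began with the stem of a subunit name (NDUF, COX and a digit, UQCR, ATP5 or SDH), or where the probe description named the enzyme. This rule found 11 of the 15008 probes on the array, standing for 10 of its 14351 gene entries. The rule itself reads names and descriptions and no measured value. Complex V had 5 probes for 4 genes, complex I 2 probes for 2 subunits, complex II 1 probe, and complex IV 1 probe for a subunit and 1 for an assembly factor. Complex III had 0. The last member was a transcript described by a partial match to NADH-ubiquinone oxidoreductase chain 2 of the protist Paramecium, and it was assigned to no complex. Most probes of this array carry no gene symbol (13639 of 15008), so these members are the named part of the system and not the whole of it.

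The lungs came from 4 sets of twins at about 130 days of gestation, where term is 147 days. In each set the fetus of the aldosterone group was infused with 0.2 mg of the hormone over 48 hours, and its twin in the control group was given vehicle. All 8 fetuses had undergone surgery, and infusions began 5 days after it. Each group therefore held 4 lungs from separate fetuses, each on its own 1-colour array, and between 76.5% and 85.4% of the spots were well above background. The comparison asks whether raised aldosterone, a steroid of the adrenal cortex that acts through the mineralocorticoid receptor, alters these transcripts in the late-gestation lung.

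The respiratory chain sits in the inner mitochondrial membrane. Complexes I and II pass electrons from NADH and succinate to ubiquinone, complex III passes them on to cytochrome c, and complex IV hands them to oxygen, while complexes I, III and IV move protons out of the matrix. ATP synthase, complex V, lets protons return through a ring of subunit c and couples the turning of that ring to the making of ATP. Epithelial sodium pumping, which clears liquid from the lung around birth and is a classical target of aldosterone in epithelia, spends ATP.

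A subunit could be compared in complexes I, II and V. With the group alone in the fit, no subunit of these differed between the groups by more than its standard error. With lungs paired by replicate number, the probe filed under ATP5PD in complex V did (0.19 ± 0.14), but it carries the strand opposite to the coding sequence. The transcript assigned to no complex did so in both fits. Neither passed the adjusted threshold. Of the 10 member probes well above background on enough arrays to be tested, 0 passed the adjusted threshold of 0.05 in limma, and 0 of all 12170 tested probes did (0%). At an unadjusted p under 0.05 limma gave 0 of the 10 members and 228 of all probes (1.87%). The 4 aldosterone values and the 4 control values overlapped for every tested member, whereas they did not overlap for 159 of all probes (1.31%). Counting 1 probe per gene, 5 of the 9 tested genes had higher means after aldosterone, the ATP5PD probe among them, and 4 lower. The median log2 difference was 0.01. Centring arrays on their medians moved every member by -0.0468 and the authors' scaling by -0.0590, which gave splits of 3 higher and 6 lower and of 2 higher and 7 lower. NDUFA12 and ATP5MC2 turned negative under both scalings and the SDHD-described transcript under the authors' scaling. The median over all tested probes was then -0.04 and -0.05, and 5 of the 9 genes lay above it in each case. In the main scaling the median over all tested probes was 0.01, and 51.5% of them had a higher mean after aldosterone. In absolute size the median difference was 0.12 over the 9 genes and 0.12 over all probes. With the group alone, the standard error exceeded the difference for 9 of the 10 member probes and for 75.6% of all probes. Precision is limited by having 8 arrays, and in whole lung a change in the cells present cannot be told apart from a change in RNA per cell.

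What the probes read is shown by their 60-base sequences, printed here 5′ to 3′ as the scanner files give them, because strand and position bear on the values that follow. On a 1-colour array of this kind the labelled copy is complementary to the mRNA, so a probe must carry the mRNA strand to detect it. For ATP5MC1, 1 of the 3 genes that encode the identical mature subunit c, the first probe crosses the end of the coding region. The capitals mark TGA, the stop codon that closes 12 open codons.
ATP5MC1 probe 1: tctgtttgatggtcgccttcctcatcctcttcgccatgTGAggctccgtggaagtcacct
The second probe of ATP5MC1 and the probes of ATP5MC2 and ATP5PO hold the letters of a polyadenylation signal, AATAAA or ATTAAA. Their last 30 bases are given with those letters in capitals.
ATP5MC1 probe 2: taccATTAAAcacaatgtttctctaaaaaa
ATP5MC2: cagaaggaagacaAATAAAtactgtattaa
ATP5PO: aacttggagcgacAATAAAatgcttcctga
AATAAA or ATTAAA was found on the printed strand in these 3 of the 11 member probes and in 8.07% of all probes, and on the reverse complement in 6.02% of all probes. The longest run of bases that the ATP5MC2 probe shared with any other probe, on either strand, was 15. The probes of the 2 genes for subunit c thus differ in sequence. Probes were compared with probes and not with transcripts, so whether a probe also binds mRNA of another subunit c gene was not tested.

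The probe filed under ATP5PD, subunit d of the peripheral stalk, needs its strand stated. The capitals mark CAT on the printed strand and the same bases as ATG on the reverse complement.
ATP5PD, as printed: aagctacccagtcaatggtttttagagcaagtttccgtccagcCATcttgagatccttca
ATP5PD, reverse complement: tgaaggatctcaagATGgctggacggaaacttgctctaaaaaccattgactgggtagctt
As background, the bases from that ATG onward on the reverse complement encode the start of subunit d as it is known in mammals, so the printed probe carries the strand opposite to that coding sequence. No transcript or protein sequence of this gene was used here. If that background holds for the sheep gene, the printed probe would not detect ATP5PD mRNA under the labelling described above. What its signal reports was not tested.

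For complex II the array holds probes on opposite strands. The transcript probe, described as succinate dehydrogenase subunit D, shares 17 bases (capitals) with the reverse complement of an expressed-sequence-tag probe filed under the same gene number.
SDHD transcript probe: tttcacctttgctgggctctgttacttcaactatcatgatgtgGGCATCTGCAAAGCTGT
SDHD tag probe, as printed: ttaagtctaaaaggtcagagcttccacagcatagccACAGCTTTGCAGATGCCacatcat
SDHD tag probe, reverse complement: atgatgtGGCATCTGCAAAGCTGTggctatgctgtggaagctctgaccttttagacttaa
Over the 8 lungs the transcript probe had intensities of 2126 to 3385 units. The tag probe had intensities of 35.5 to 50.4 units, and levels of different probes are not comparable. Both were well above background on 8 arrays. The 2 accessions listed for the transcript probe belong, in RefSeq's sheep gene table of ARS-UI_Ramb_v3.0, to a pair of entries that are separate from the gene named SDHD there. Whether the signal comes from SDHD, from near-identical copies or from both was not tested.

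Values below are log2 signals relative to the 75th percentile of the same array. They serve to compare lungs for 1 probe and not probes with each other. Differences are aldosterone minus control with limma's moderated standard error.

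Complex I was represented by 2 accessory subunits of the alpha subcomplex. NDUFA12, an accessory subunit of the arm that takes electrons from NADH, had log2 signals of 1.85, 1.90, 1.81 and 1.85 in aldosterone lungs 1 to 4, against 1.44, 2.11, 1.82 and 2.01 in control lungs 1 to 4. The aldosterone lungs lay within 0.08 of each other and inside the span of the controls, whose range was 0.67. The difference was 0.01 ± 0.16 (SE, n = 4 per group), with a 95% interval from -0.36 to 0.38 and an adjusted p in limma of 1.00. The other probe, described as subunit 2 of the alpha subcomplex (NDUFA2 in cattle), gave 3.07, 3.36, 2.78 and 2.81 in aldosterone lungs, against 2.99, 3.33, 3.27 and 2.95 in control lungs. Aldosterone lungs 3 and 4 were the lowest of all 8, and the groups overlapped. The difference was -0.13 ± 0.17 (interval -0.52 to 0.27). The median over the 2 genes of complex I was -0.06, with 1 higher and 1 lower.

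Complex II, succinate dehydrogenase, joins the tricarboxylic acid cycle to the chain and is the complex with no subunit encoded in mitochondrial DNA. Its subunit D is a membrane anchor. The SDHD transcript probe gave 0.99, 0.95, 1.00 and 0.84 in aldosterone lungs, against 0.94, 0.97, 0.92 and 0.76 in control lungs. Lung 4 was the lowest of each group, and the whole set spanned 0.23. The difference of 0.05 ± 0.12 had the narrowest interval of the members, -0.22 to 0.32, which spans folds of 0.858 to 1.25. The spread of this probe among lungs of a group (pooled SD 0.08) was below that of all but 1.07% of the tested probes, whose median was 0.29. A second probe of the same transcript contig, outside the rule, gave -0.07 ± 0.17.

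For complex IV no subunit could be compared. COX5A, a nuclear-encoded subunit on the matrix side of cytochrome c oxidase, was not well above background on any of the 8 arrays. Its intensities were 4.70 to 11.3 units in aldosterone lungs and 3.17 to 13.1 units in control lungs, and no fold is given. The probe was designed on an expressed sequence tag, and its strand was not tested. COX15, an assembly factor that makes the heme a of complex IV and is not a subunit, gave -3.55, -3.21, -2.81 and -2.72 in aldosterone lungs, against -3.39, -3.57, -3.30 and -2.58 in control lungs. Control lung 4 was the highest of the 8, and the difference of 0.14 ± 0.26 had an interval from -0.46 to 0.73.

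Complex V had the most members. ATP5PO, the oligomycin sensitivity-conferring protein that ties the catalytic head to the peripheral stalk, gave 2.73, 2.81, 2.62 and 2.65 in aldosterone lungs, against 2.53, 2.74, 3.06 and 2.95 in control lungs. Control lungs 3 and 4 lay above every aldosterone lung and control lung 1 below them. The difference was -0.12 ± 0.15, with an interval from -0.46 to 0.22 and an adjusted p in limma of 1.00.

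Subunit c, which forms the proton-driven ring, was represented by probes of 2 of its genes. For ATP5MC1 the probe across the stop codon gave 4.53, 4.93, 4.84 and 4.86 in aldosterone lungs, against 4.52, 4.98, 5.12 and 4.74 in control lungs. Lung 1 was the lowest of each group. The difference was -0.05 ± 0.17. The second probe of the gene ran from 3.73 to 4.12 in aldosterone lungs, against 3.71 to 4.11 in control lungs, and its difference was -0.01 ± 0.14. Both probes of ATP5MC1 thus differed by less than their standard errors. ATP5MC2 gave 5.37, 5.94, 6.12 and 6.06 in aldosterone lungs, against 5.53, 5.87, 6.04 and 5.87 in control lungs, and again lung 1 was the lowest of each group. The difference of 0.05 ± 0.20 had an interval from -0.40 to 0.50. For the probe filed under ATP5PD the values were -2.95, -2.54, -2.47 and -2.13 in aldosterone lungs, against -3.43, -2.88, -2.53 and -2.01 in control lungs. The lungs took the same order in both groups, with number 1 lowest and number 4 highest. Its difference was 0.19 ± 0.30 with the widest interval of the 10 tested probes, -0.50 to 0.88. Over the 4 genes of complex V the median difference was -0.00175, with 2 higher and 2 lower. This counts the ATP5PD probe, which carries the strand opposite to the coding sequence, among the higher ones. Without it, an alternative chosen after seeing the data, the median over 3 genes was -0.05.

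**Figure D1:**
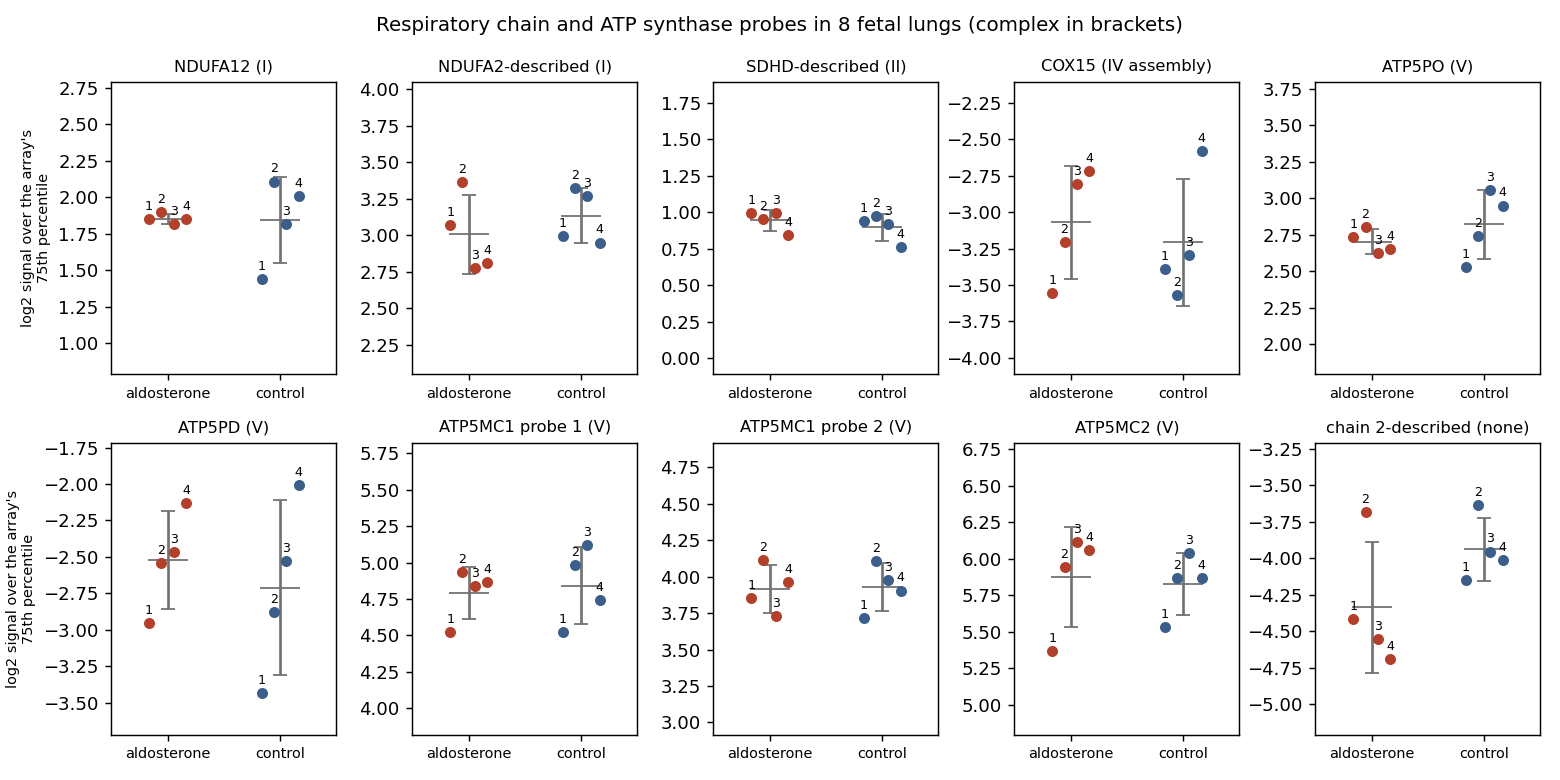
Log2 signal relative to the array's 75th percentile (vertical axes, each spanning 2 log2 units) for the 10 tested member probes, by group. Points are single lungs numbered by replicate, and bars are the mean ± SD of 4 lungs. The groups overlap in all 10 panels, the span over all 8 lungs is smallest for the SDHD-described probe at 0.23, and ATP5PD and ATP5MC2 have lung 1 as the lowest of each group.

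With the group alone in the fit, the transcript matched to chain 2 of Paramecium, assigned to no complex, was the 1 member whose difference exceeded its standard error. It gave -4.42, -3.68, -4.55 and -4.69 in aldosterone lungs, against -4.15, -3.64, -3.95 and -4.01 in control lungs. Aldosterone lungs 1, 3 and 4 lay below all controls and aldosterone lung 2 above all but 1 of them. The difference was -0.40 ± 0.23 (interval -0.92 to 0.13, unadjusted p in limma 0.121, adjusted p 1.00). Without aldosterone lung 2 the difference was -0.62 and the adjusted p in limma 0.999. A match of part of a transcript to a protist protein does not give it a role in sheep, and none is given here.

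**Figure D2:**
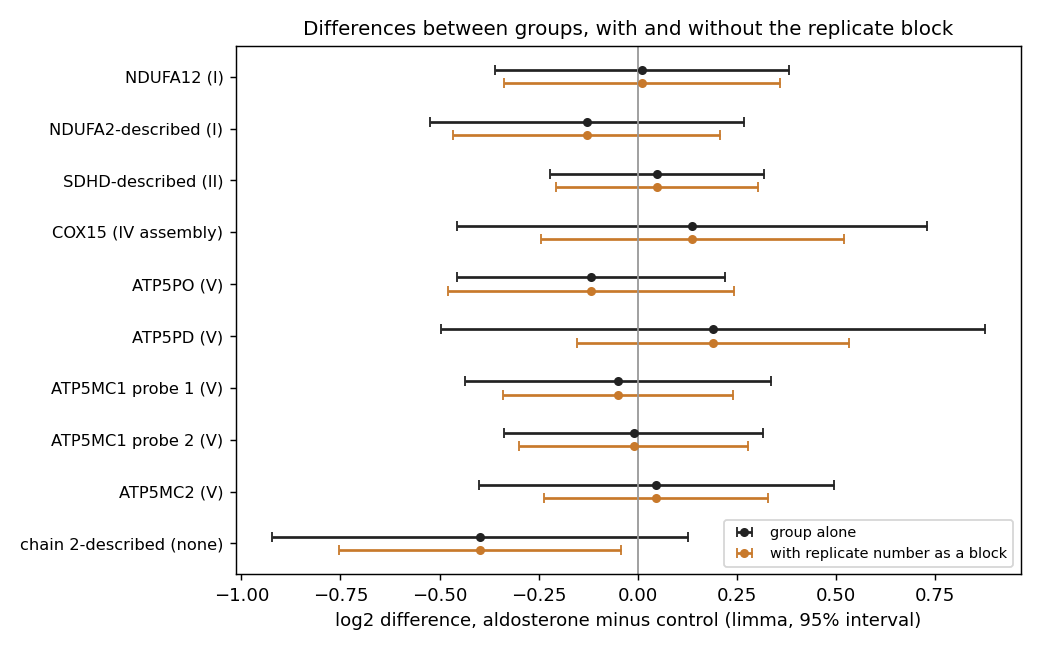
Log2 difference between aldosterone and control lungs (horizontal axis) with limma's 95% interval for the 10 tested member probes, fitted with the group alone (black) or blocked on the replicate number (orange). All 10 black intervals include 0, and the orange interval of the transcript matched to chain 2 of Paramecium ends at -0.04, below 0.

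The same-numbered lungs resembled each other, so the differences were also taken within the 4 pairs. With the replicate number as a block the standard errors of the 10 member probes ran from 0.10 to 0.16, whereas with the group alone they ran from 0.12 to 0.30. All 10 were smaller with the block. ATP5PD moved the most, with 0.14 in the blocked fit and 0.30 in the other, and its pairs differed by 0.48, 0.34, 0.06 and -0.12. With the block 0 members passed the adjusted threshold in limma, and 0 of all probes did (0%). At an unadjusted p under 0.05 the block gave 1 of the 10 members and 539 of all probes (4.43%). That member was the transcript matched to chain 2 of Paramecium (unadjusted p in limma 0.0342, adjusted p 0.878). It was lower in the aldosterone lung of all 4 pairs, with log2 differences of -0.27, -0.05, -0.60 and -0.68. Pairs of a single sign were found for 1 of the 10 members and for 13.3% of all probes.

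The replicates also lay in 2 rows of the slide, with numbers 1 and 2 of both groups in row 1 and numbers 3 and 4 in row 2. ATP5PO differed by 0.13 within row 1 and by -0.37 within row 2. The NDUFA2-described probe gave 0.06 and -0.31, and ATP5PD 0.41 and -0.03. The SDHD-described probe gave 0.02 and 0.08, the same sign in both. In all, 6 of the 10 members had opposite signs in the 2 rows, as had 48% of all tested probes. Slide row and replicate number cannot be told apart beyond this, since each number lies in 1 row.

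**Figure D3:**
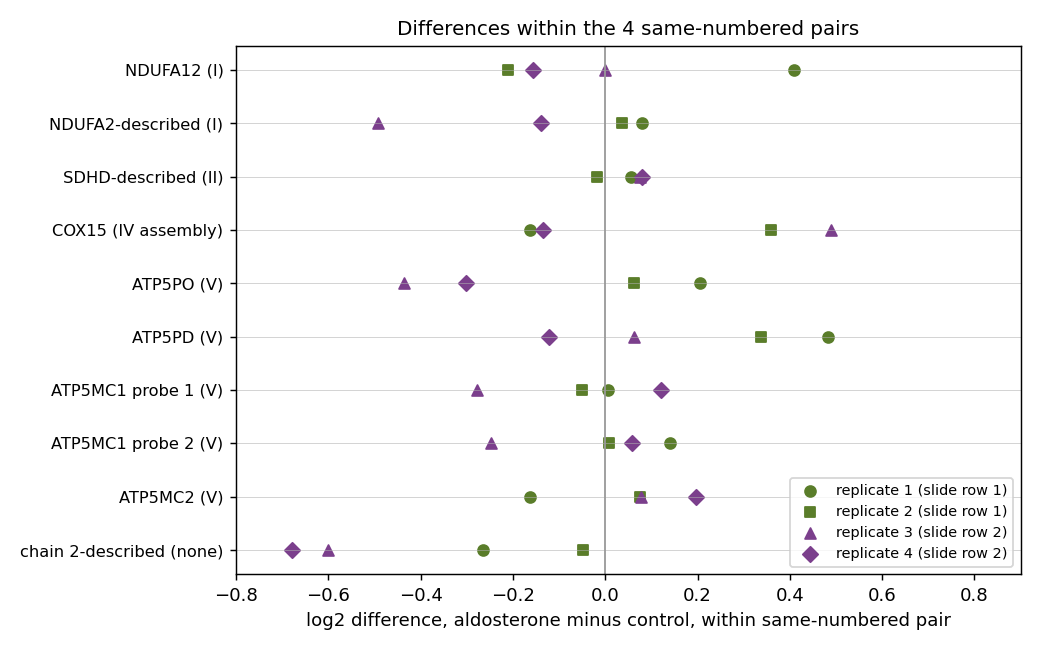
Log2 difference between the aldosterone and the control lung of each same-numbered pair (horizontal axis) for the 10 tested member probes. Green points are pairs 1 and 2, in row 1 of the slide, and purple points are pairs 3 and 4, in row 2. For ATP5PO the green points lie at 0.20 and 0.06 and the purple ones at -0.44 and -0.30, and the transcript matched to chain 2 of Paramecium has all 4 points below 0.

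Single lungs moved the signs. In control lung 1, 8 of the 9 tested genes lay below the mean of the control group, the exception being the SDHD-described transcript, and the median deviation was -0.29. In the other 7 lungs between 3 and 7 of the 9 genes lay above their group mean. Without control lung 1 the split of the 9 genes was 2 higher and 7 lower, with a median log2 difference of -0.12, and NDUFA12, ATP5MC2 and ATP5PD were below 0 at -0.12, -0.05 and -0.05. The median over all tested probes was 0.000238 in that fit. No member passed the adjusted threshold there.

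**Figure D4:**
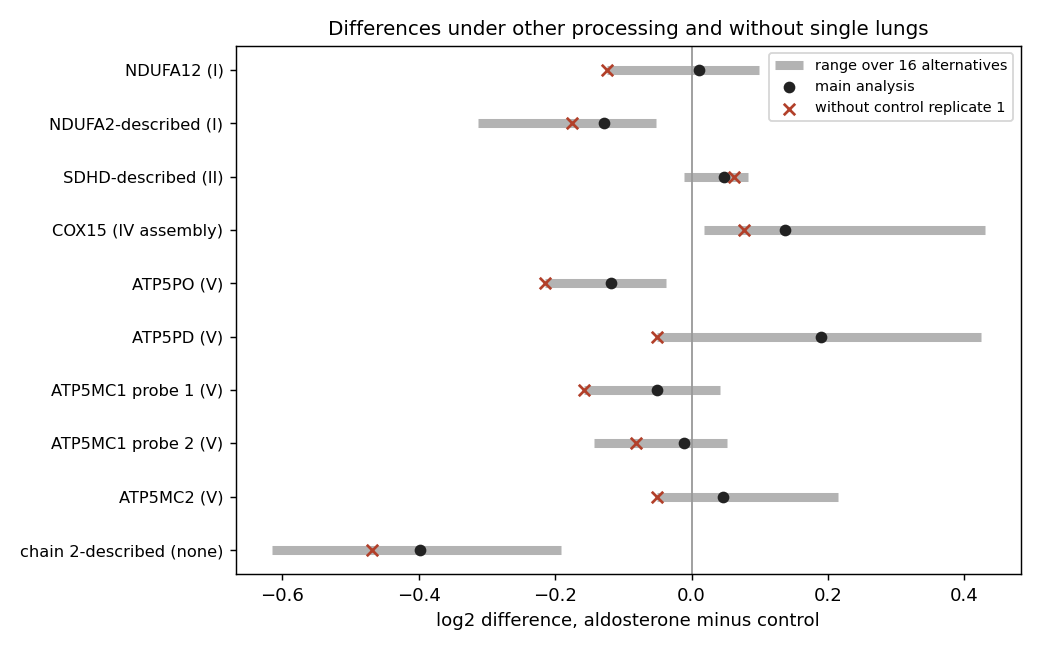
Log2 difference between aldosterone and control lungs (horizontal axis) for the 10 tested member probes in the main analysis (black), its range over 16 alternatives (grey bars) and its value without control replicate 1 (red crosses). The bars of ATP5PO and the NDUFA2-described probe stay below 0 and that of COX15 above 0, while those of NDUFA12, ATP5MC2, both ATP5MC1 probes, ATP5PD and the SDHD-described probe reach both signs.

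Neighbouring parts of mitochondrial energy supply were described from lists of gene names. Of 51 assembly factors 1 was measured, COX15, given above. Of 43 electron carriers, membrane carriers and tricarboxylic acid cycle enzymes 6 had a probe and 5 could be tested, of which 3 were higher, 2 lower and 0 passed, with a median log2 difference of 0.13. SLC25A5, an ADP/ATP carrier of the inner membrane, gave 2.21, 2.78, 2.23 and 2.37 in aldosterone lungs, against 2.07, 2.03, 2.06 and 2.29 in control lungs. It was higher in the aldosterone lung of all 4 pairs and the groups overlapped through control lung 4. The difference of 0.29 ± 0.16 did not pass (unadjusted p in limma 0.108, adjusted p 1.00). Its relatives SLC25A4 and SLC25A6 gave -0.14 ± 0.38 and 0.22 ± 0.32, VDAC1, the channel of the outer membrane, 0.13 ± 0.12, and the carrier UCP3 -0.19 ± 0.26. UCP1, the uncoupling protein of brown fat, was not well above background on any array.

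Of 20 regulators of mitochondrial biogenesis and hormone receptors, 6 had a probe and 5 could be tested. Of these 1 was higher, 4 were lower and 0 passed, with a median log2 difference of -0.32. The 4 lower ones include PRKAA2, which encodes a catalytic alpha subunit of the energy-sensing AMP-activated protein kinase. It was well above background on 2 aldosterone and 4 control arrays, so it could be tested through the control arrays alone, and no difference is given for it. Without it 1 regulator was higher and 3 lower, with a median of -0.23. NRF1 and GABPA, transcription factors of nuclear genes for the chain, gave -0.15 ± 0.16 and 0.04 ± 0.17. HIF1A, the oxygen-regulated factor, gave -0.35 ± 0.24, and the glucocorticoid receptor NR3C1 -0.32 ± 0.29. Second probes of HIF1A and NRF1, not counted above, gave -0.51 ± 0.23 and 0.06 ± 0.18, and neither passed the adjusted threshold. PPARGC1A, a coactivator of mitochondrial biogenesis, was well above background on 1 aldosterone array and 0 control arrays and was not tested.

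As a check of the tissue, SFTPC, SFTPB and SFTPA1 of alveolar type II cells, AQP5 of type I cells and SCGB3A2 of airway secretory cells were well above background on all 8 arrays. Aldosterone lungs averaged higher for 1 of these 5 epithelial markers and lower for 4, with a median log2 difference of -0.10, and 0 passed. SFTPB was counted at -0.10 ± 0.25, and its second probe, not counted, gave 0.05 ± 0.24. Second probes of the other epithelial markers kept the sign of the first. SCGB3A2 gave -1.14 ± 0.66 (unadjusted p in limma 0.121, adjusted p 1.00). Markers of red blood cells (HBB, AHSP, CA1) were present too, with 3 of 3 lower after aldosterone and a median log2 difference of -0.72, and 0 of them passed. The striated muscle markers TNNC2 and MB gave 0.33 ± 0.25 and 0.23 ± 0.35. Endothelial markers had 3 of 3 higher means, with AQP1, a water channel, at 0.55 ± 0.17 (unadjusted p in limma 0.0103, adjusted p 1.00), and 0 passed. KDR was counted by its probe of highest mean, at 0.18 ± 0.22. Its other probes gave 0.14 ± 0.27, -0.08 ± 0.23 and -0.05 ± 0.24, so the sign for this gene differed between probes. Mesenchymal and macrophage markers had 2 of 2 higher means each, and 0 passed. Liver markers had 2 higher and 1 lower, the lower one being ALB at -0.15 ± 0.35, whose second probe gave 0.03 ± 0.50. The part of other cells in the signals of the members was not tested.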

How the data were processed

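Lungs of 8 sheep fetuses, 4 given aldosterone and 4 given vehicle, were each measured on 1 Agilent 1-colour array, with groups taken from the sample titles. The spot intensities were extracted by the authors with Agilent Feature Extraction 10.1.1.1, per the submitters' processing notes, and the processed signal deposited in the scanner files is an intensity in arbitrary units. The authors also deposited a table of log2 values, which equalled the log2 processed intensity of the same array less a constant and had a median of 0 in each column. It served as an alternative.

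From the scanner files, control spots and 74 values flagged as outliers were left out. The log2 processed intensity was scaled to the 75th percentile of each array, which ran from 1203 to 1700 units, and spots of a probe were averaged. A probe was tested if 4 or more of the 8 arrays showed it well above background, which left 12170 of 15008. The groups were compared with limma 3.58.1 in R 4.3.3 and p-values were adjusted over these probes by the Benjamini-Hochberg method, at a threshold of 0.05. Lists were described by counts and medians, with 1 probe per gene (the highest mean over the arrays). The procedure was tested on simulated data drawn independently for each array, without the twin pairs or slide rows of the real arrays. Members and lists were chosen with earlier results of these data known.

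The named genes were to be ATP5PO, ATP5PD, ATP5MC1 and ATP5MC2, and in each complex the 3 genes with the smallest unadjusted p and the 2 nearest to 0. With 10 tested probes this named every member. The sample titles call the lungs twins and give each a replicate number. They do not state that the same number marks the same twin set. Deviations from the group means correlated at 0.275 to 0.538 between lungs of the same number and at -0.449 to 0.203 between lungs of different numbers, so the numbers were used as pairs in an alternative fit. Other alternatives were another background correction and normalization, median centring, other filters on dim probes, the slide row as a block, array weights and leaving out each lung. Probes were named from the scanner files and, for accessions, from RefSeq's sheep gene table of ARS-UI_Ramb_v3.0. No coordinates are given, since no genome of the array's build was used here.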

Additional observations from a re-analysis of the deposited data

How the results depend on the processing

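Over 16 alternatives, 0 probes of the array and 0 members passed the adjusted threshold in limma. At an unadjusted p under 0.05 the number of member probes was 1 with the replicate block, 1 with array weights and 0 to 1 when single lungs were left out (1 without aldosterone replicate 2), against 0 in the main analysis, and the cause was not tested. The replicate block changed no other call. The unadjusted count over all probes was 539 with the replicate block (4.43%) and 1282 with array weights (10.5%). It was 315 without aldosterone replicate 2 (2.59%), against 228 in the main analysis (1.87%). In each of these alternatives the member was the transcript matched to chain 2 of Paramecium. Leaving out single lungs moved the median difference of complex I between -0.15 and 0.02, of complex II between 0.00 and 0.08 and of complex V between -0.10 and 0.13. Without ATP5PD, an alternative chosen after seeing the data because of the strand of its probe, the median of complex V was -0.05. Complexes III and IV had no tested subunit and so no median. Signs turned for small differences. Under the 2 scalings the turn came from a shift shared by all members, -0.0468 and -0.0590, and for the other alternatives the cause was not tested. With median centring NDUFA12 was -0.036 and ATP5MC2 -0.00011. In the authors' processed values NDUFA12 was -0.0485, ATP5MC2 -0.0123 and the SDHD-described probe -0.0108. With array weights NDUFA12 was -0.0693. On leaving out single lungs NDUFA12 ran from -0.12 to 0.10, ATP5MC1 probe 1 from -0.157 to 0.0418, ATP5MC1 probe 2 from -0.081 to 0.0513, ATP5MC2 from -0.051 to 0.21 and ATP5PD from -0.0509 to 0.42. The differences of the NDUFA2-described probe (-0.31 to -0.05), COX15 (0.02 to 0.43), ATP5PO (-0.21 to -0.04) and the transcript matched to chain 2 of Paramecium (-0.62 to -0.19) kept their sign in all 16. Among these, the filters on dim probes and the blocks on replicate number and slide row could not move the differences. They are therefore no check of the sign. With 4 lungs per group and the group alone in the fit, the 95% intervals of the 10 tested members reached from -0.92 to 0.88 on the log2 scale. With the replicate block they reached from -0.75 to 0.53.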

Other observations

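The scanner files hold further probes filed under genes of the members that the name and description rule did not take. For ATP5MC1, 2 expressed-sequence-tag probes shared a run of 59 bases with each other. Their intensities were 122 to 176 and 113 to 158 units over the 8 lungs, and their log2 differences between aldosterone and control lungs were 0.01 ± 0.16 and -0.01 ± 0.15 (SE). For the SDHD gene number, a second expressed-sequence-tag probe had intensities of 28.6 to 46.8 units and a log2 difference of -0.05 ± 0.21. The tag probe on the opposite strand of the transcript probe gave 0.09 ± 0.22. All of these probes were well above background on 8 arrays, and none passed the adjusted threshold in limma (adjusted p 1.00).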
